A study of Oryza sativa with 4 samples.

Results

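Ammonium uptake and the synthesis of glutamine and glutamate were described in rice root tip protoplasts through 10 genes, taken by identifier from a list of the pathway: 3 ammonium transporter genes of the AMT1 family, 4 glutamine synthetase genes and 3 glutamate synthase genes. Of these 10, 8 were listed in at least 1 of the 2 deposited tables, out of 20567 identifiers listed in either. The table of the cultivar 93-11 held 6 of them among 13486 identifiers, and that of Nipponbare 6 among 15657. Both tables listed 4 of the 10 genes, and 8576 of all identifiers. LOC_Os02g40710 of the AMT1 family and the ferredoxin-dependent glutamate synthase gene Fd-GOGAT (LOC_Os07g46460) were in neither table and are not analysed here.

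The groups were 93-11, an indica cultivar, and Nipponbare, a japonica cultivar, with 2 libraries each and no other treatment or genotype. All seedlings were 3 days old and grown in Hoagland's complete solution at 28°C. Tips of 5 mm from 800 crown roots were digested for 2.5 hours with enzymes that remove the cell wall, and RNA of the resulting protoplasts was sequenced after selection of poly(A) RNA. Protoplasts hold only the cells that the digestion released, and the labels do not say whether replicate libraries were made from separate preparations, so the spread behind every p-value is that of these 4 libraries and may be technical. Absence from a table is not a level of 0, since genes with 0 reads are listed and the rule for listing a gene is unknown.

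Roots take up ammonium through AMT transporters of the plasma membrane. Glutamine synthetase joins ammonium to glutamate to form glutamine, and glutamate synthase, or GOGAT, passes the amide group of glutamine to 2-oxoglutarate, which yields glutamate. Plants have cytosolic glutamine synthetases, the GS1 group, and a plastid form, GS2, best known from leaves. Glutamate synthases draw electrons from NADH, as is typical of roots, or from ferredoxin, as is typical of green tissue.

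Levels are given in RPM, the reads of a gene scaled to the library total. Library totals implied by the values lay between 21504426 and 21504715 reads, so 1 read was worth 0.0465 RPM. Where no read was counted, the true level may reach 0.140 RPM, which is what 3 reads are worth. The listed genes held 42.3% and 43.5% of the totals for 93-11, and 55.6% and 55.7% for Nipponbare. Over the 8576 identifiers in both tables, log2(RPM + 1) had a Pearson correlation of 0.996 between the 93-11 libraries, 0.998 between the Nipponbare libraries, and 0.452 to 0.457 between libraries of different cultivars. These are correlations across genes, which are not independent replicates. Most deposited values had lost their decimal point and were restored from the whole number of reads they must represent. A restored value is 10 times too low where the true read numbers of both libraries of a cultivar end in 0, which the tables cannot show for a single gene. RPM is not scaled to gene length and no lengths of the counted gene models were at hand, so levels of different genes are not ranked here.

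**Figure D1:**
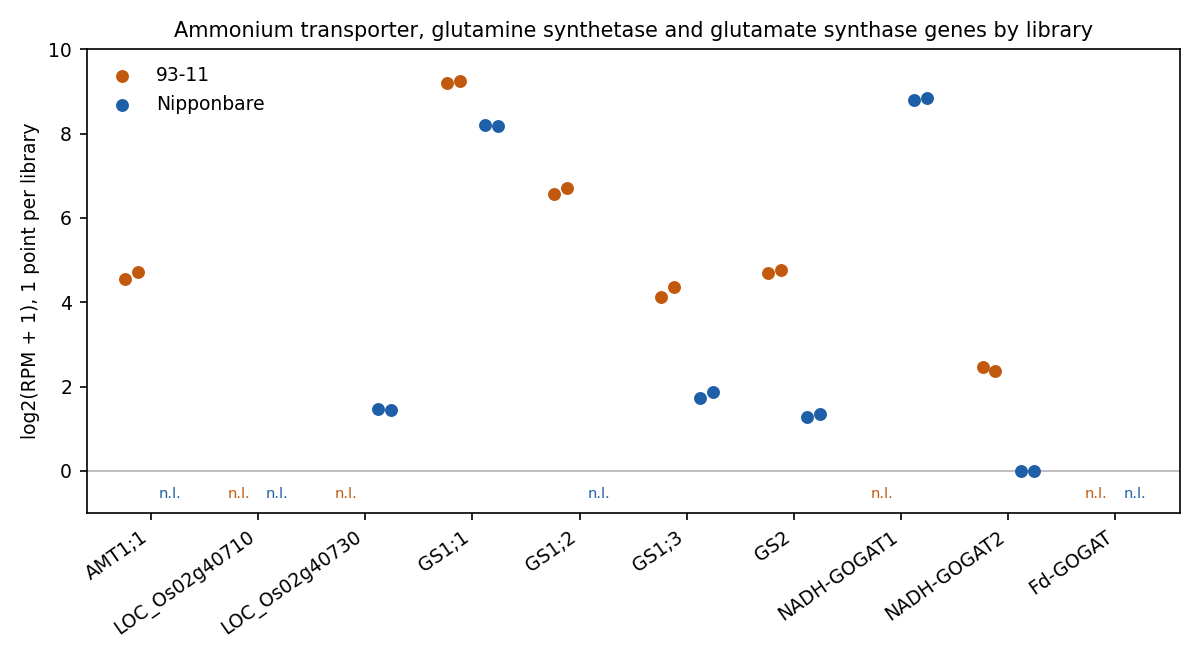
The vertical axis is log2(RPM + 1), with 1 point per library, for the 10 genes in 93-11 (orange) and Nipponbare (blue); n.l. marks a gene that a cultivar's table does not list. In each of the 4 genes with points of both colours the 93-11 points lie above the Nipponbare points.

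The ammonium transporter genes could not be compared between the cultivars, because each was listed for 1 cultivar at most. AMT1;1 (LOC_Os04g43070, chromosome 4), a high-affinity transporter gene active in roots and shoots of rice, was at 22.6 and 25.4 RPM in the 93-11 libraries, from 486 and 547 reads, with a mean of 24.0 ± 2.01 RPM (SD, n = 2). The libraries differed by a factor of 1.13, with a counting interval of 0.994 to 1.27, so the difference was within counting error. In Nipponbare LOC_Os02g40730 on chromosome 2 was at 1.77 and 1.72 RPM, from 38 and 37 reads. This gene and its neighbour LOC_Os02g40710 are the root ammonium transporter genes AMT1;2 and AMT1;3, but which name belongs to which identifier is not settled. The member list calls LOC_Os02g40730 AMT1;3, whereas the RefSeq table gives both synonyms to 2 genes and places OsAMT1;3 before OsAMT1;2 on the chromosome.

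Glutamine synthetase genes were higher in 93-11 wherever both tables listed them, and by very different amounts. GS2 was 17.1-fold higher, GS1;3 7.24-fold and GS1;1 2.05-fold. All 3 differences passed limma's test across 7269 shared genes. Because 96.9% of those genes passed it, 59.0% with a higher value in 93-11 and 37.9% with a higher value in Nipponbare, a call as such does not set these genes apart. Whether genes were listed because they differed is unknown, so these shares, and the percentiles below, describe the listed genes and not the genome. In bulk RNA, fewer cells of a type and less RNA per cell cannot be told apart.

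GS1;1 (LOC_Os02g50240, chromosome 2), the cytosolic form that is expressed throughout the rice plant, was at 592 and 611 RPM in 93-11, from 12721 and 13137 reads, and at 295 and 291 RPM in Nipponbare, from 6346 and 6259 reads. The groups did not overlap, which does not set the gene apart where 96.9% of tested genes were called. The libraries of a cultivar differed by factors of 1.03 and 0.986. The difference was 1.03 on the log2(RPM + 1) scale (SE 0.032, limma adjusted p = 4.05e-06). It was 0.41 below the median difference of all tested genes, which was 1.44 in favour of 93-11, and stood at percentile 45.3 of them. Its size and its place depended on the scaling. Under median-ratio scaling it was 0.49, below the median of 1.03 found there. After quantile normalization it was 1.92, above the median of 0.59 found there.

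GS1;2 (LOC_Os03g12290, chromosome 3), the cytosolic form known in rice for the primary assimilation of ammonium in roots, was listed for 93-11 only. It was at 94.3 and 103 RPM, from 2028 and 2224 reads. Replicate 2 exceeded replicate 1 by a factor of 1.10 with a counting interval of 1.03 to 1.17, beyond counting error.

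GS1;3 (LOC_Os03g50490, chromosome 3), a cytosolic form known mainly from rice spikelets, was at 16.4 and 19.6 RPM in 93-11, from 353 and 422 reads. In Nipponbare it was at 2.33 and 2.65 RPM, from 50 and 57 reads. The lowest 93-11 library was thus several times above the highest Nipponbare library. The log2 difference was 2.44 (SE 0.12, limma adjusted p = 1.78e-05), at percentile 71.0 of all tested genes, and the 7.24-fold difference in RPM had a counting interval of 5.91 to 8.95. The GS1 genes are similar in sequence, and no source used here says how reads that fit several of them were counted, so their separate values are uncertain to that degree.

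GS2 (LOC_Os04g56400, chromosome 4), the gene of the plastid enzyme, had the largest fold in RPM of the 3 glutamine synthetase genes in both tables. It was at 25.0 and 26.0 RPM in 93-11, from 538 and 559 reads, and at 1.44 and 1.53 RPM in Nipponbare, from 31 and 33 reads. The log2 difference was 3.41 (SE 0.075, limma adjusted p = 1.73e-06), at percentile 87.0 of all tested genes. The 17.1-fold difference had a counting interval of 13.3 to 22.4. If both Nipponbare values of a gene were 10 times too low, GS2 would still be higher in 93-11, by 0.74 on the log2 scale (limma adjusted p = 0.000182), while the differences of GS1;1 and GS1;3 would turn to -2.28 and -0.45.

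Like the markers of root cell types given below, the markers of green tissue in both tables were higher in 93-11. Of 6 such genes, which encode the small subunit of Rubisco, chlorophyll-binding proteins and Rubisco activase, 3 were in both tables. Their summed level was 6.28 and 7.11 RPM in the 93-11 libraries, most of it from the chlorophyll-binding protein gene CAB1R (LOC_Os09g17740) with 5.37 RPM on average, and all 3 had 0 reads in both Nipponbare libraries. Another Rubisco small subunit gene (LOC_Os12g19470) was listed for Nipponbare only, at 0.698 and 0.837 RPM. The part of such cells or plastids in the GS2 difference was not tested.

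Of the NADH-dependent glutamate synthase genes, 1 was in both tables and had no read in Nipponbare. NADH-GOGAT1 (LOC_Os01g48960, chromosome 1), the form known for ammonium assimilation in rice root tips, was listed for Nipponbare only, at 446 and 455 RPM, from 9595 and 9794 reads. Its replicate ratio of 1.02 had a counting interval of 0.992 to 1.05. NADH-GOGAT2 (LOC_Os05g48200, chromosome 5), known in rice from vascular cells of mature leaves, was at 4.51 and 4.19 RPM in 93-11, from 97 and 90 reads, and had 0 reads in both Nipponbare libraries.

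NADH-GOGAT2 was therefore at least 31.2-fold higher in 93-11, taken against the worth of 3 reads per library. Its log2 difference of 2.42 rests on the pseudocount, since it was 5.47 with a pseudocount of 0.1 RPM. Only genes whose 4 libraries averaged 1 RPM or more were tested. NADH-GOGAT2 reached that through 93-11 alone, and so had to differ to be tested, so that no test of it is given. Its level in Nipponbare is known only to lie under 0.140 RPM.

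The distribution of differences over all tested genes had a peak in favour of each cultivar and a trough between them: 90 genes lay in the bin from 0.5 to 0.75, 239 in the bin from -1.25 to -1 and 420 in the bin from 1.75 to 2. The part of the unknown listing rule in this trough was not tested. In RPM, GS1;1 lay below the median of 1.44 over all 7269 genes, and GS1;3 and GS2 lay above it. After quantile normalization GS1;1, at 1.92, lay above the median of 0.59. The place of NADH-GOGAT2 is set by its entry through 93-11 alone.

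**Figure D2:**
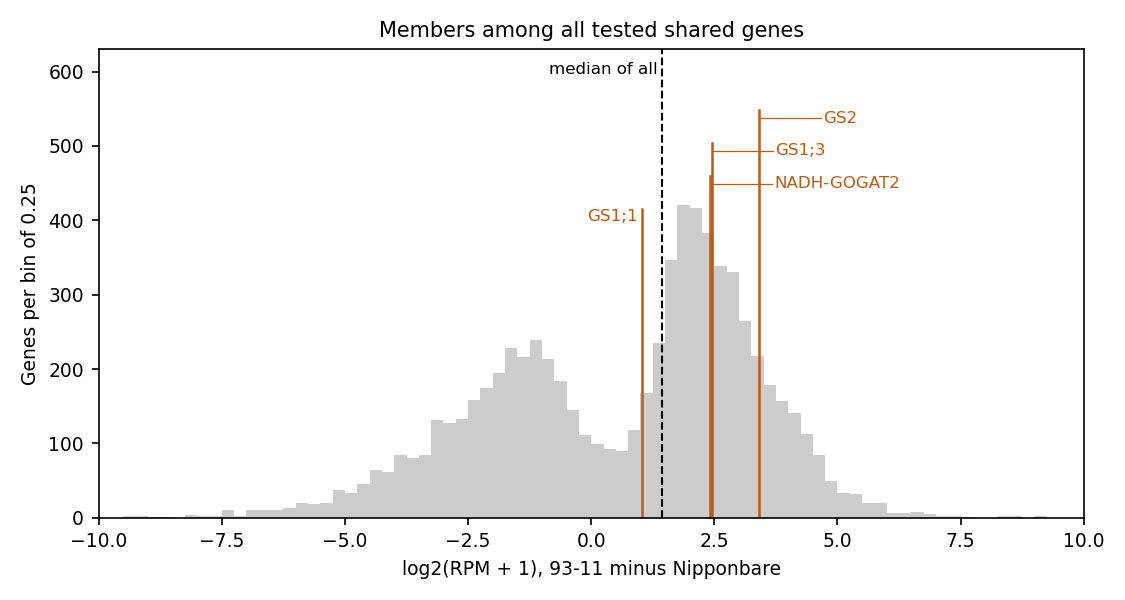
Grey bars count the 7269 tested genes by their log2(RPM + 1) difference, 93-11 minus Nipponbare, in bins of 0.25; the dashed line is their median of 1.44 and orange lines mark the 4 members in both tables. GS1;1 lies below the median, at 1.03, and NADH-GOGAT2, GS1;3 and GS2 above it, at 2.42, 2.44 and 3.41.

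Ratios of reads inside a library do not depend on a single factor that scales the library. Comparing such a ratio between cultivars does not depend on gene length if both were counted on the same gene models, which is unknown here. Quantile normalization is not a single factor, and the ratios do depend on leaving it out. Under it the log2 difference of GS1;1, at 1.92, exceeded that of GS1;3, at 1.54, while GS2 was at 2.61. Per 100 reads of GS1;1 there were 4.23 and 4.26 reads of GS2 in the 93-11 libraries and 0.488 and 0.527 in the Nipponbare libraries. For GS1;3 these ratios were 2.77 and 3.21 in 93-11 and 0.788 and 0.911 in Nipponbare. The groups did not overlap in either ratio. How many other gene ratios show the same was not counted, and 96.9% of tested genes were called between the cultivars. For NADH-GOGAT2 there were 0.763 and 0.685 reads per 100 of GS1;1 in 93-11, and the 0 reads of Nipponbare allow up to 0.0473 and 0.0479.

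Taken as restored, these ratios differed between the cultivars by more than the spread between libraries. The GS2 to GS1;1 ratio was 8.36-fold higher in 93-11 with a counting interval of 6.49 to 10.8, and the GS1;3 to GS1;1 ratio 3.52-fold higher with an interval of 2.88 to 4.33. Per 100 reads of GS1;3, GS2 had 152 and 132 reads in 93-11 and 62.0 and 57.9 in Nipponbare, a 2.37-fold difference with an interval of 1.71 to 3.27. For each of these 3 ratios the two-sided exact permutation test over libraries gave p = 0.333, and an adjusted p = 0.333 over the 3, which is the smallest value that 2 libraries against 2 allow. All 3 ratios rest on the restored decimal points: with the first-named gene 10 times higher in both Nipponbare libraries, the 8.36-fold, 3.52-fold and 2.37-fold differences would become 0.836-fold, 0.352-fold and 0.237-fold.

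**Figure D3:**
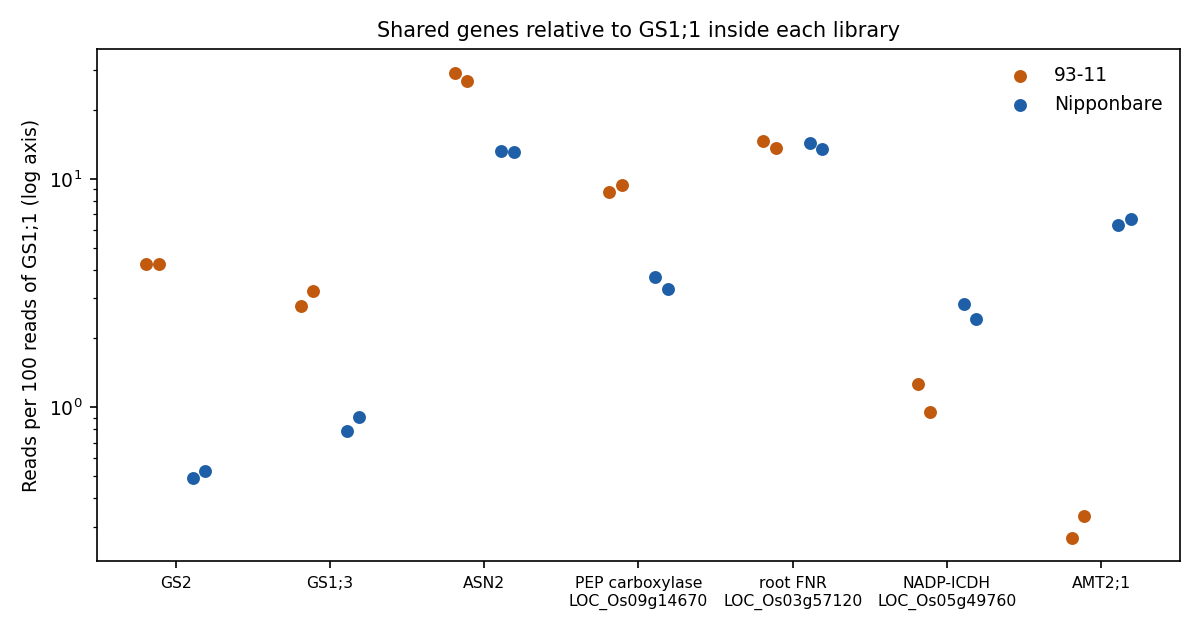
The vertical axis, which is logarithmic, gives reads per 100 reads of GS1;1 in the same library, with 1 point per library, for genes listed in both tables (orange 93-11, blue Nipponbare). GS2, GS1;3, ASN2 and a PEP carboxylase gene have higher ratios in 93-11, the root ferredoxin-NADP reductase gene lies between 13.5 and 14.6 in all 4 libraries, and the NADP isocitrate dehydrogenase gene and AMT2;1 have higher ratios in Nipponbare.

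The wider pathway was followed through 31 further genes. Of these, 23 were listed in at least 1 table, 6 for 93-11 only, 12 for Nipponbare only and 5 in both. All 5 were tested, and 3 were higher in 93-11, 1 was higher in Nipponbare and 1 did not pass. Over all tested genes 59.0% were higher in 93-11 and 37.9% in Nipponbare, so these counts are near the background. Their median log2 difference was 1.03, against 1.44 over all tested genes.

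Among ammonium transporters outside the AMT1 family, 1 gene was in both tables, and it was higher in Nipponbare. AMT2;1 (LOC_Os05g39240) was at 1.58 and 2.05 RPM in 93-11 and at 18.6 and 19.4 RPM in Nipponbare, 10.5-fold higher in Nipponbare. Its log2 difference was -2.83 (SE 0.11, limma adjusted p = 8.14e-06). A misplaced decimal point in 93-11 would give nearly that fold: with both 93-11 values taken 10 times higher the difference was -0.07 and did not pass (limma adjusted p = 0.603). LOC_Os01g61510, 1 of the pair AMT2;2 and AMT2;3, was listed for Nipponbare only at 43.2 and 45.3 RPM, the first of which is 4.32 RPM when that library is restored alone, as was AMT3;2 (LOC_Os03g62200) at 5.07 and 3.63 RPM. AMT3;3 (LOC_Os02g34580), listed for 93-11 only, had 2 and 15 reads.

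Asparagine synthetase, which moves the amide group of glutamine to aspartate, was listed in 93-11 through both of its genes. ASN2 (LOC_Os06g15420) was at 173 and 164 RPM in 93-11 and at 39.1 and 38.1 RPM in Nipponbare, 4.36-fold higher in 93-11 with a log2 difference of 2.10 (SE 0.047, limma adjusted p = 1.79e-06). Relative to GS1;1 it was also higher, with 29.2 and 26.8 reads per 100 in 93-11 against 13.3 and 13.1 in Nipponbare. ASN1 (LOC_Os03g18130), known as the main form of rice roots under ammonium, was listed for 93-11 only, at 174 and 198 RPM.

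Glutamate dehydrogenase genes, whose enzymes release ammonium from glutamate in mitochondria, were listed for Nipponbare only. GDH1 (LOC_Os03g58040) was at 334 and 330 RPM, GDH2 (LOC_Os04g45970) at 280 and 273 RPM, and GDH3 (LOC_Os02g43470) had 0 reads. Each of the abundant pair varied little between the libraries, with SDs of 2.76 and 5.16 RPM. Among the transaminases, which pass the amino group of glutamate to other acids, the aspartate aminotransferase gene AAT2 (LOC_Os01g55540) was at 777 and 822 RPM and was listed for 93-11 only. AAT1 (LOC_Os02g55420), at 15.5 and 15.2 RPM, and the alanine aminotransferase genes LOC_Os07g01760, at 19.9 and 20.0 RPM (2.00 RPM for the second when restored alone), and LOC_Os10g25140, at 2.51 and 1.35 RPM, were listed for Nipponbare only. A further alanine aminotransferase gene, LOC_Os09g26380, had 1 read in 93-11.

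Genes that supply carbon skeletons and reducing power differed by member. PEP carboxylase replenishes the organic acids that assimilation consumes, and its gene LOC_Os09g14670 was at 52.0 and 57.7 RPM in 93-11 and at 10.9 and 9.63 RPM in Nipponbare, 5.33-fold higher in 93-11 (log2 difference 2.31, SE 0.090, limma adjusted p = 8.50e-06). This value rests on the use of both libraries in placing the decimal point: with each library restored alone the difference was 0.75 and did not pass (limma adjusted p = 0.612). LOC_Os08g27840, a second PEP carboxylase gene, was listed for 93-11 only, at 130.2 and 133 RPM, the first of which comes out far lower when that library is restored alone.

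NADP-dependent isocitrate dehydrogenase forms 2-oxoglutarate, the acceptor that glutamate synthase uses. Its gene LOC_Os05g49760 was at 7.49 and 5.81 RPM in 93-11 and at 8.37 and 7.11 RPM in Nipponbare, so the groups overlapped. The log2 difference of -0.20 did not pass (95% interval -0.58 to 0.19, limma adjusted p = 0.238), but it was -0.67 under median-ratio scaling and -1.15 with quantile normalization. Both of these alternatives passed as higher in Nipponbare, with limma adjusted p-values of 0.0095 and 0.00135. LOC_Os01g46610, the other gene of this enzyme followed here, was listed for Nipponbare only, at 327 and 326 RPM.

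Root ferredoxin-NADP reductase hands electrons to ferredoxin in root plastids. Its gene LOC_Os03g57120 was at 86.3 and 83.6 RPM in 93-11 and at 42.5 and 39.4 RPM in Nipponbare, 2.07-fold higher in 93-11 (log2 difference 1.03, SE 0.056, limma adjusted p = 2.84e-05). Relative to GS1;1 the cultivars overlapped, with 14.6 and 13.7 reads per 100 in 93-11 and 14.4 and 13.5 in Nipponbare. LOC_Os07g05400, another gene of this enzyme, was listed for Nipponbare only, at 9.63 and 8.23 RPM, as was the nitrite reductase gene NiR (LOC_Os01g25484), whose enzyme forms ammonium in plastids, at 90.3 and 93.5 RPM.

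Regulators of the pathway were each listed for 1 cultivar at most. ACTPK1 (LOC_Os02g02780), a protein kinase that restrains AMT1;2 in rice, was at 103 and 107 RPM in Nipponbare, the second of which is 1.07 RPM when restored alone. PII (LOC_Os05g04220), a plastid sensor of nitrogen and carbon state, was at 15.5 and 16.6 RPM in 93-11. The transcription factor gene IDD10 (LOC_Os04g47860) was in neither table.

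**Figure D4:**
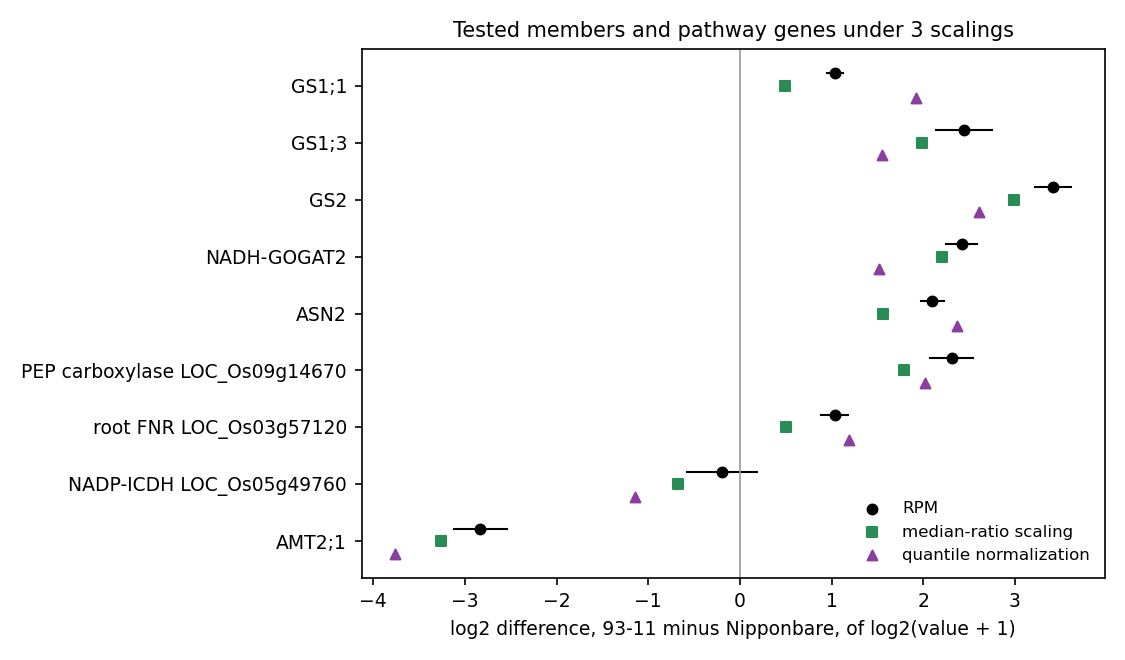
The horizontal axis is the log2 difference, 93-11 minus Nipponbare, of log2(value + 1) for the 4 members and the 5 pathway genes in both tables; black points with 95% limma intervals use RPM, green squares median-ratio scaling and purple triangles quantile normalization. No gene changes sign under another scaling, while GS1;1 ranges from 0.49 to 1.92 and the interval of the NADP isocitrate dehydrogenase gene includes 0 in RPM. NADH-GOGAT2 entered the fit through 93-11 alone and could have no other sign, so its interval is no test of it.

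Markers of root cell types that were in both tables were all higher in 93-11, as were 59.0% of all tested genes. Of the tested root markers, all but PCNA and PHO1;2 averaged under 1 RPM in Nipponbare. Those markers reached the filter of 1 RPM through 93-11 alone and could only come out higher there, so their direction is no result. SHR1 fell under the filter and was not tested. Other root markers were listed for 1 cultivar only and could not be compared. All 6 marker genes of dividing cells were in both tables, with a summed level of 343 and 351 RPM in 93-11 and of 3.95 and 4.14 RPM in Nipponbare, where CYCB2;1 and CYCB2;2 were at 0. With each library restored alone the 93-11 sums were 234 and 335 RPM. The shared root hair markers, 2 of 3, summed to 61.0 and 60.9 RPM in 93-11, or 6.09 RPM for the second library restored alone, and to 0.791 RPM in each Nipponbare library.

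The shared stele markers, 3 of 5, summed to 23.9 and 24.3 RPM in 93-11 against 4.74 and 4.88 RPM in Nipponbare, with SHR1 at 0 in Nipponbare and PHO1;2 differing 1.67-fold. The other stele markers, CESA4 at a mean of 6.32 ± 0.460 RPM (SD, n = 2) and CESA9 at 3.12 and 2.33 RPM, were listed for Nipponbare only, and with them the Nipponbare sums were 14.5 and 13.2 RPM. Of the 4 markers of endodermis and exodermis, Lsi2 alone was in both tables, at 10.2 and 12.8 RPM in 93-11 and 0 in Nipponbare. CASP1 was listed for 93-11 only, at 34.4 and 34.3 RPM, and Lsi1 for Nipponbare only, at 4.19 and 4.88 RPM, while SCR1 was listed for Nipponbare at 0. Of the 24 marker genes for green and root cells, 16 were listed for 93-11 and 21 for Nipponbare. Of all 20567 identifiers, 13486 were listed for 93-11 and 15657 for Nipponbare. The part of cell type composition in the differences of the 4 members was not tested.

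The nearest genes by Euclidean distance in log2(RPM + 1) over the 4 libraries were sought among 7268 genes. For GS1;1 they were LOC_Os03g13540, at a distance of 0.28, and LOC_Os07g26690, at 0.31. For GS1;3 they were LOC_Os02g57280 at 0.14 and LOC_Os01g53620 at 0.17, and for GS2 LOC_Os03g23970 at 0.10 and LOC_Os06g23870 at 0.15. For NADH-GOGAT2, LOC_Os10g40030 had the same RPM in every library and LOC_Os05g07680 lay at 0.018, a likeness of low values. With 4 libraries such nearness describes level and direction only.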

How the data were processed

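Gene levels were deposited as 1 table per cultivar with an RPM column per library; HISAT2 2.0.4 and HTSeq 0.11.2 are named in the submitters' processing notes. Genome build, annotation, strand setting and listing rule are unknown here, as is whether both cultivars were mapped to the same reference. The part of the reference in the folds and ratios between cultivars was not tested. Deposited RPM values of 1 or more had mostly lost their decimal point. Each was restored as a whole number of reads (tolerance 1e-06 of a read plus 1e-12 of the value), using the candidates that lay closest between both libraries of the cultivar; ties went to the lowest pair. Pairs over 0.4 apart in log10 were left out unless at least 1 value lay under 1 RPM and was intact. This removed 3 genes in 93-11 and 1 in Nipponbare. Each library restored alone gave the same values for all 12 listings of members in a table; 5 of 28 listings of pathway genes and 5 of 37 of markers (FH1, EXPA17, CYCB1;1, CYCB2;1 and PCNA) rest on the use of both libraries.

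The fit used limma 3.58.1 (R 4.3.3) with trended variance on log2(RPM + 1), for identifiers in both tables averaging 1 RPM or more; this scale understates changes of low genes. Benjamini-Hochberg adjustment covered all genes tested, with calls at 0.05. Counting intervals are at 95% and, like the floor of 3 reads, cover counting error only. Restoration and fit were tried on simulated data in which most genes had the same mean in both cultivars. These data differ in that, so the outcome is not given and no result here rests on it. Alternatives were another pseudocount, no filter, 2 other scalings, a replicate block, each library left out and each library restored alone.

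All 10 members are named, and pathway genes that were tested or listed with at least 1 RPM; AMT3;3, LOC_Os09g26380, GDH3 and IDD10 fall outside this rule and were named after their values were seen. Identifiers were paired with names from knowledge: in the RefSeq table of assembly ASM3414082v1, 9 of 10 members and 10 of 31 pathway genes had their name on the same chromosome, and the others were not found. Members and lists were chosen with earlier results of these data known.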

Additional observations from a re-analysis of the deposited data

How the results depend on the processing

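The differences of GS1;1, GS1;3 and GS2 kept their direction and their call with a pseudocount of 0.1 RPM, no filter, median-ratio scaling and quantile normalization. Neither the pseudocount nor the filter could change the direction of these differences. Their order did not hold under quantile normalization, where GS1;1 was at 1.92 and GS1;3 at 1.54. Restoring each library alone gave the same member values, so it could not change these differences. They kept their direction without each library in turn, as they had to, because the groups did not overlap in any of these genes. Without a library, the log2 difference ranged from 1.01 to 1.06 for GS1;1, from 2.32 to 2.57 for GS1;3 and from 3.39 to 3.44 for GS2. NADH-GOGAT2 could likewise move in no other direction, so its range of 2.37 to 2.46 shows no stability. With both Nipponbare values taken 10 times higher, an alternative chosen after seeing the data, the difference of GS1;1 was -2.28 and that of GS1;3 was -0.45, and with the numerator taken so the log2 differences of the ratios GS1;3 to GS1;1, GS2 to GS1;1 and GS2 to GS1;3 were -1.50, -0.26 and -2.08, all reversed by construction. The pathway genes called higher in Nipponbare numbered 2 in place of 1 with median-ratio scaling and also 2 with quantile normalization, through the isocitrate dehydrogenase gene LOC_Os05g49760. Median-ratio scaling moved the median difference of all tested genes from 1.44 to 1.03 and quantile normalization to 0.59, and the share of calls higher in 93-11 depends on it: 4127 against 2960 and 3892 against 3035, in place of 4290 against 2757.

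Same-numbered libraries of the cultivars did not deviate together (correlation 0.019 across 7269 genes). With the replicate number as a block, 4294 genes were called higher in 93-11 and 2776 in Nipponbare. In this balanced design the block cannot change a difference, only its error and its call. No call of a member or pathway gene changed. Levels per coding length were planned and not run. With 31 and 33 reads for GS2 and 50 and 57 for GS1;3 in Nipponbare, depth limits the precision of their folds.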
